A study of Mus musculus with 8 samples.

Results

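Bone-marrow-derived macrophages of C57BL/6 mice were given 25-hydroxycholesterol (25HC) and then the bacterial lipopeptide mimic PAM3CSK4 (PAM3), and their histone H4 acetylation was set against that of macrophages given PAM3 without 25HC. The comparison rests on 4 of the 8 acetyl-H4 ChIP-seq libraries of the series, chosen by their labels: 2 libraries of 25HC then PAM3 and 2 of PAM3, with mouse A and mouse B giving 1 to each pair. The other 4 libraries, 2 of 25HC and 2 of untreated cells from the same mice, carry no PAM3 and serve as resting cells below. The stimulation time label reads 18 with PAM3 and 0 without it, and gives no unit. For the dose and duration of 25HC, the labels state nothing (not given in the sources used here). All groups share the C57BL/6 background, a rabbit polyclonal antibody against acetylated H4 and the KAPA Hyper Prep library kit. Each group is 1 library per mouse, so an SD below is the spread between a pair of libraries. An SE below comes from a model of all 8 libraries, which pools the spread of the 4 pairs.

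Toll-like receptor 2, with its partners Tlr1 and Tlr6, senses bacterial lipopeptides at the macrophage surface and signals through Myd88 to NF-κB and AP-1, which switch on cytokine and chemokine genes. 25HC is made from cholesterol by the enzyme Ch25h in activated macrophages. It holds back the SREBP factors that drive cholesterol synthesis, and it is a ligand of the LXR receptors, which drive genes of cholesterol export. Acetylated histone H4 marks open chromatin at active promoters and enhancers.

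The deposited data are lists of broad peaks. The lists held 49751 and 52728 peaks for mouse A and mouse B in 25HC then PAM3, against 49316 and 54552 in PAM3. Peaks covered 66.6 ± 4.30 Mb in 25HC then PAM3 and 64.5 ± 11.2 Mb in PAM3 (SD, n = 2 each; two-sided exact permutation test, p = 1, where 0.333 is the smallest p the design allows). The PAM3 group held both the least covered library of all 8 (mouse A, 56.6 Mb) and the most covered one (mouse B, 72.4 Mb). The lists hold no read counts, so sequencing depth is unknown. All 10 macrophage markers checked, among them Csf1r, Adgre1, Itgam, Cd14, Cd68, Mertk, Fcgr1, Lyz2 and Spi1, carried peaks in all 8 libraries. Markers of other cells were mixed. Of 8 neutrophil markers, 3 were at 0 in all 8 libraries (S100a9, Ly6g and Cxcr2) and 3 carried peaks in all 8 (S100a8, Elane and Csf3r). Of 8 lymphocyte markers, 3 were at 0 (Cd3e, Cd8a and Pax5) and 3 carried peaks in all 8 (Cd3d, Cd4 and Ms4a1). Of 7 fibroblast and endothelial markers, 2 were at 0 (Col1a2 and Col3a1) and 3 carried peaks in all 8 (Pecam1, Cdh5 and Kdr), as did 3 of 6 erythroid and megakaryocyte markers (Klf1, Pf4 and Itga2b). The neutrophil markers summed to 9.70 and 7.73 kb in 25HC then PAM3, against 7.93 and 9.20 kb in PAM3, and the lymphocyte markers to 6.60 and 8.27 kb, against 7.94 and 8.78 kb in PAM3. The part of such cells in the results was not tested.

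Each gene was measured by its called length: the base pairs (bp) of a library's peaks that fall in the gene body or within 5 kb on either side. Log2 changes are of called bp plus 500 bp, with each library's median subtracted, so genes with short peaks show too small a change. "Rose" and "fell" are used for genes under a Benjamini-Hochberg adjusted p of 0.05 in limma. The model covers all 4 groups and every adjusted p below comes from it unless another test is named. Called length says how far a mark reaches past the authors' threshold, not how much of it there is. In bulk chromatin, fewer cells with a mark and less of it in each cell cannot be told apart.

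Under PAM3, macrophages given 25HC first had more called H4 acetylation over Tlr4 and Cd14, which together sense lipopolysaccharide, over the neutrophil attractant Cxcl2 and over the immunity GTPase Igtp. They had less over the complement gene C1qa, over the kynurenine enzyme Kmo and over a set of genes whose peaks were missing altogether. In all, 97 genes rose (0.665% of 14589 tested) and 93 fell (0.637%), which makes 190 (1.3%), with log2 changes of 0.60 to 3.07 and −3.48 to −0.62. At an unadjusted p under 0.05 there were 2173 genes (14.9%). The calls rest on a spread estimated over all 8 libraries: none of the 190 passed in a fit of the 4 PAM3-stimulated libraries alone, or when any 1 of the 4 resting libraries was left out. None passed with the mouse as a block either, where the smallest adjusted p was 0.0720, although all 190 had an unadjusted p under 0.05 there.

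Among the receptors, Tlr4 (chromosome 4, 66827551 to 66846581, GRCm38.p6), the lipopolysaccharide receptor, rose. Its called length was 8609 and 10651 bp in 25HC then PAM3 (mouse A, mouse B), against 2264 and 2943 bp in PAM3. Both 25HC then PAM3 libraries lay far above both PAM3 libraries, and the resting libraries lay between them, at 6610 and 6822 bp with 25HC and 6110 and 6283 bp untreated. The rise of Tlr4 was 1.70 ± 0.11 (log2, SE; adjusted p = 0.0180). The difference was clearest at the left end of the gene: a peak of 3792 and 4456 bp lay over it in 25HC then PAM3, no peak did in either PAM3 library, and one of 3423 to 3669 bp did in all 4 resting libraries. The 4 kb from chr4:66827001-66831000 were covered for 3701 and 3704 bp in 25HC then PAM3, against 0 and 0 bp in PAM3 and 3321 to 3551 bp in resting cells. The left-end peak of Tlr4 was thus listed in 6 of 8 libraries and missing where PAM3 was given without 25HC. Another peak, towards the right end of the gene, was listed in all 8.

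**Figure D1:**
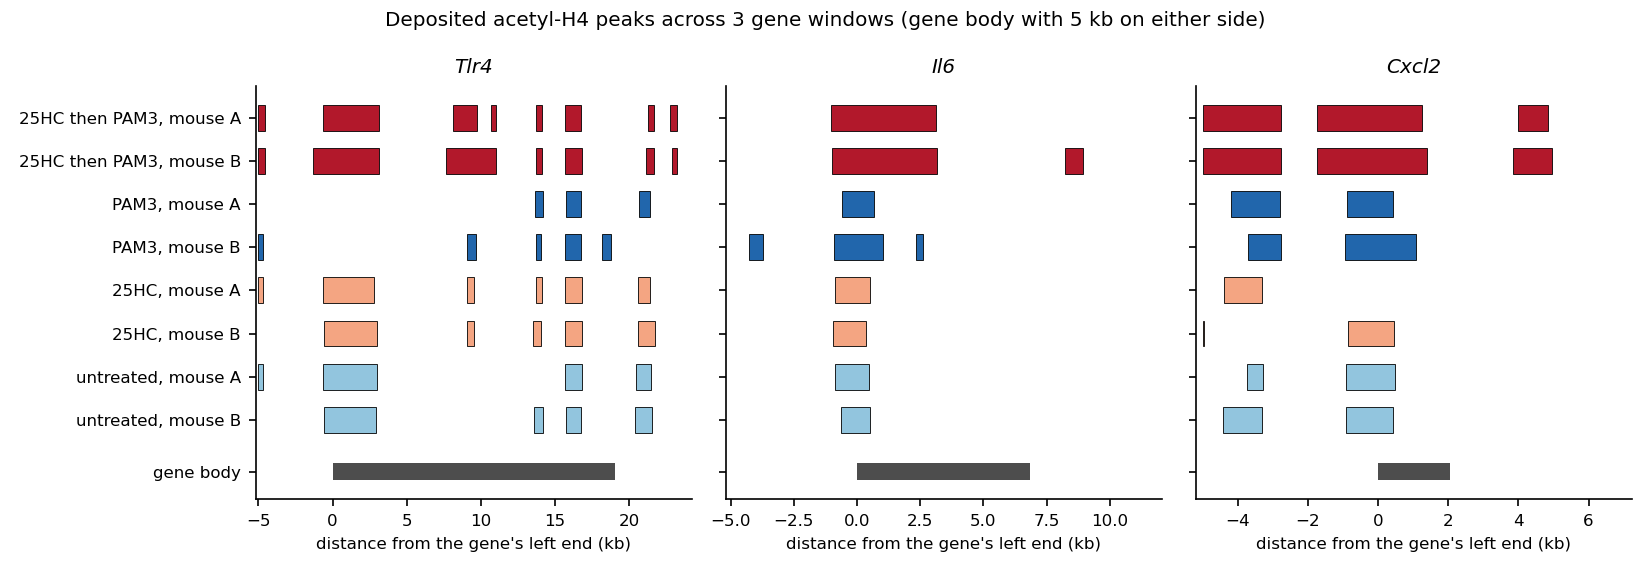
Peaks of the 8 libraries (rows, 25HC then PAM3 at the top) over Tlr4, Il6 and Cxcl2, drawn as bars against the distance in kb from each gene's left end, with the gene body marked. The peak over the left end of Tlr4 is present in 6 libraries and absent from both PAM3 libraries, and the peak over the left end of Il6 is longest in the pair of 25HC then PAM3 libraries.

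Cd14 (chromosome 18, 36725064 to 36726815), the co-receptor that hands lipopolysaccharide and lipopeptides to Toll-like receptors, had 5240 and 6774 bp in 25HC then PAM3, against 2499 and 3510 bp in PAM3. The resting libraries had 2784 to 2973 bp, so Cd14 was high in the 2 libraries of 25HC then PAM3 alone. It rose by 0.89 ± 0.13 (log2, SE; adjusted p = 0.0467). The change was 0.40 when peaks under a −log10 q of 5 were left out and 0.069 over the short gene body alone, and passed in neither. The receptors of PAM3 itself gave no call: Tlr2 had 4080 and 4034 bp in 25HC then PAM3, against 3615 and 5015 bp in PAM3, with the groups overlapping (log2 −0.07), and log2 changes were −0.05 for Tlr1, −0.03 for Tlr6, −0.08 for the adaptor Myd88 and −0.21 for Ly96, the partner of Tlr4. None of these 5 passed. Of 28 tested genes of Toll-like receptor signalling, 2 rose (Tlr4 and Cd14) and none fell, with a median log2 change of 0.01 beside 0.006 over all tested genes. The lowest p among the list's falls was that of Traf6, the ubiquitin ligase downstream of Myd88, at −0.49 (adjusted p = 0.109).

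Cytokine and chemokine genes had log2 changes mostly above 0. Of 36 tested, 1 rose (Cxcl2) and none fell, and 31 had a log2 change above 0, where 50.9% of all tested genes did. The median was 0.43, and 0.26 without the least covered library, PAM3 of mouse A. In resting cells the same genes had a median of 0.08 for 25HC against untreated. Both 25HC then PAM3 libraries exceeded both PAM3 libraries for 18 of the 36, where this held for 21.3% of all tested genes, and the reverse held for 2 of 36, against 17.4% of all. The list was chosen with earlier results of these data known, so these counts are a description.

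Cxcl2 (chromosome 5, 90903899 to 90905938) had 6074 and 6446 bp in 25HC then PAM3, against 2744 and 2972 bp in PAM3. Resting cells had 1076 and 1353 bp with 25HC and 1826 and 2456 bp untreated, so the groups followed the order 25HC then PAM3, PAM3, untreated, 25HC with no overlap. It rose by 1.0 ± 0.15 (log2, SE; adjusted p = 0.0497), close to the threshold, and leaving out any 1 library gave an adjusted p of 0.0745 to 0.13. Over the gene body alone the change was 0.60. The peak over its start was 2997 and 3118 bp long in 25HC then PAM3, against 1329 and 2035 bp in PAM3. A further peak of 852 and 1105 bp, downstream of the gene, was listed only in the 2 libraries of 25HC then PAM3.

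Il6 (chromosome 5, 30013114 to 30019975), the acute-phase cytokine, had 4166 and 4902 bp in 25HC then PAM3, against 1283 and 2696 bp in PAM3, with 1130 to 1376 bp in resting cells. Both 25HC then PAM3 libraries stood above the other 6, yet the change of 1.06 ± 0.22 (log2, SE) did not pass (adjusted p = 0.0946). It passed without PAM3 of mouse B (adjusted p = 0.0406) and over the gene body alone (adjusted p = 0.0241). With the covered length of all libraries made equal, the change was 0.041 (adjusted p = 0.999). The peak over the start of Il6 reached from −1026 to 3139 bp of the start in mouse A and from −1001 to 3162 bp in mouse B of 25HC then PAM3. In PAM3 it reached from −605 to 677 bp in mouse A and from −894 to 1007 bp in mouse B. Its reach into the gene was thus longer in both libraries of 25HC then PAM3.

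Other attractants and interleukin-1 showed the same order of libraries without passing. Il1a, an alarm cytokine, had 4700 and 5291 bp in 25HC then PAM3, against 2044 and 2834 bp in PAM3 (log2 0.91, adjusted p = 0.0866, and log2 0.15 without peaks under a −log10 q of 5). Cxcl1 had 1876 and 3633 bp, against 1103 and 1216 bp in PAM3 (log2 0.91, adjusted p = 0.216). Most of the value of mouse B in 25HC then PAM3 came from a peak of 5377 bp that runs on into the Cxcl2 window. The peak over the start of Cxcl1 was 1132 and 1256 bp long in 25HC then PAM3, against 868 and 793 bp in PAM3. Cxcl3, singled out after its values were seen for lying beside Cxcl1 and Cxcl2, had 5115 and 4114 bp in 25HC then PAM3, against 1244 and 1616 bp in PAM3 (log2 1.40, adjusted p = 0.108). In each of these 3 genes both 25HC then PAM3 libraries exceeded both PAM3 libraries. Groups overlapped at Tnf, which had 3971 and 3934 bp, against 3686 and 4099 bp in PAM3 (log2 0.01, adjusted p = 0.99), and Il12b changed by 0.05 (adjusted p = 0.981) and Il1b by 0.45 (adjusted p = 0.518). Il10, the cytokine that restrains macrophages, had 2718 and 2594 bp in 25HC then PAM3, against 3863 and 5724 bp in PAM3 and 3496 to 4019 bp in resting cells. It was lowest in the 2 libraries of 25HC then PAM3 (log2 −0.73, adjusted p = 0.0801). It passed without PAM3 of mouse A (adjusted p = 0.0452) and over the gene body alone (adjusted p = 0.0224).

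**Figure D2:**
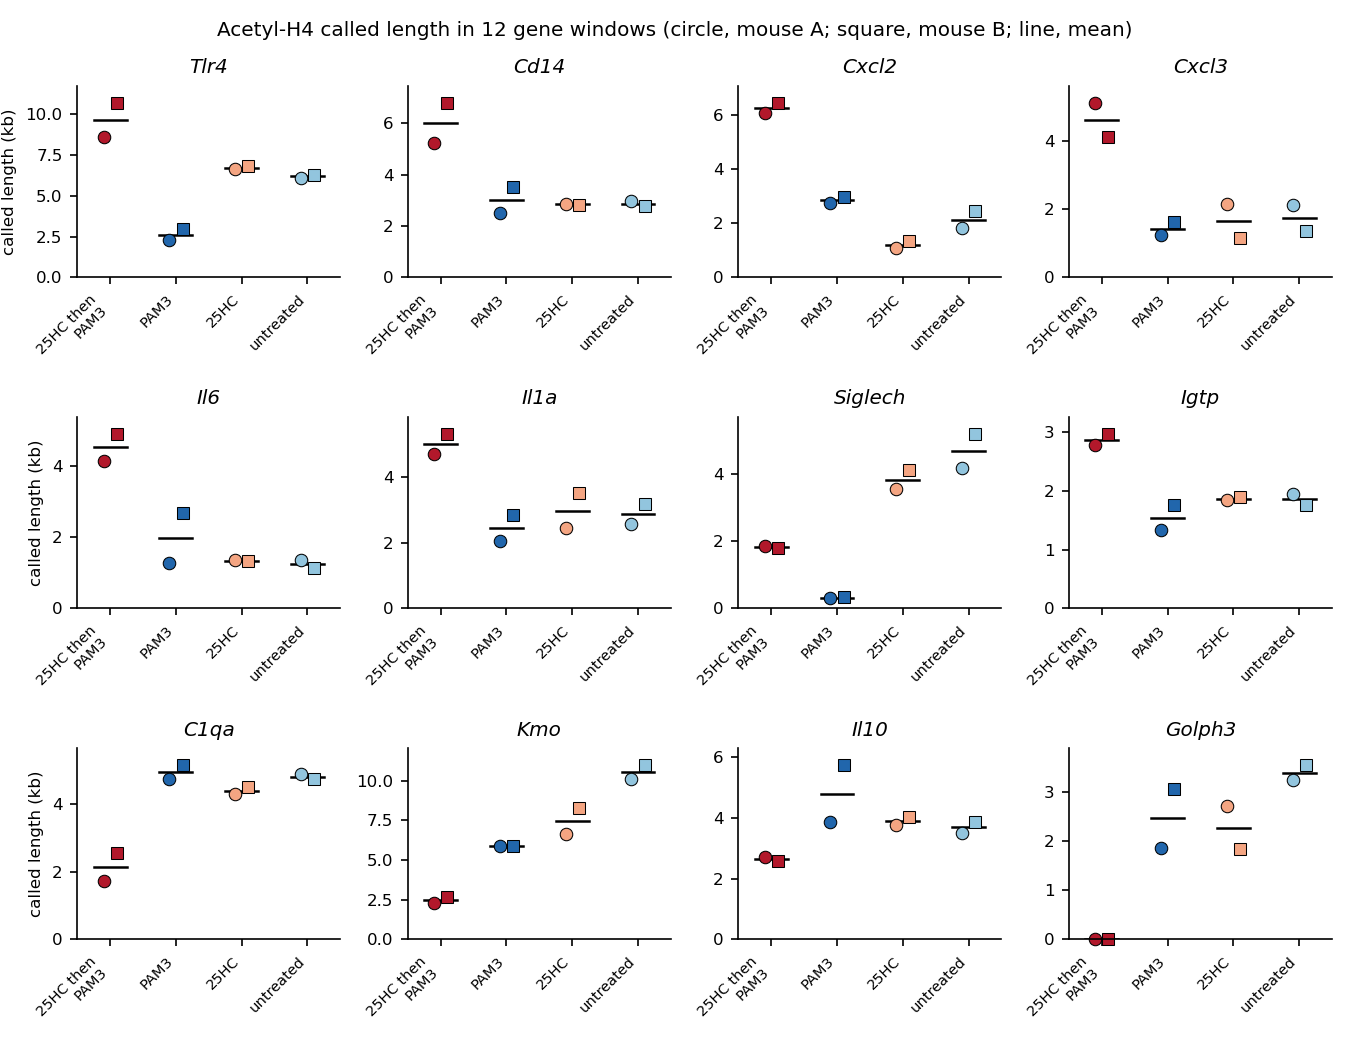
Called length in kb of peaks within each gene's window for 12 genes, per library, in the 4 groups 25HC then PAM3, PAM3, 25HC and untreated (circle mouse A, square mouse B, line the mean of the pair). Cxcl2, Cxcl3 and Il6 are highest in 25HC then PAM3, Tlr4 is lowest in PAM3, C1qa and Kmo are lowest in 25HC then PAM3, and Golph3 is at 0 in both libraries of 25HC then PAM3.

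The promoters of the CXC chemokine genes and Il6 are shown because both libraries of 25HC then PAM3 exceeded both PAM3 libraries at these genes, of which Cxcl2 alone passed, and because each carries a match to an NF-κB motif just before its start. Sequences are the 250 bases before the start on the plus strand, from RefSeq on GRCm38.p6, at chr5:90903649-90903898 for Cxcl2, chr5:90785851-90786100 for Cxcl3, chr5:30012864-30013113 for Il6 and chr5:90890995-90891244 for Cxcl1. Capitals mark matches, on either strand, to GGG, any 2 bases and TTTCC.
Cxcl2: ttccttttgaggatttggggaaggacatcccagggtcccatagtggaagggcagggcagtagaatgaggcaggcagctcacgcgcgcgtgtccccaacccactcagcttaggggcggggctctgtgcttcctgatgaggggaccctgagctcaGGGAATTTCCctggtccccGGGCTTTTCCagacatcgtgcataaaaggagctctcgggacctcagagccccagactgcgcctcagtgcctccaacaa
Cxcl3: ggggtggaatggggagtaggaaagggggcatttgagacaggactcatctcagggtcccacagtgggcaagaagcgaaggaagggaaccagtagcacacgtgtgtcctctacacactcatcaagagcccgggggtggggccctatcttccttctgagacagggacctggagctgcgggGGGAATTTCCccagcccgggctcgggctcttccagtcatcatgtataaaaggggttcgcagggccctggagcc
Il6: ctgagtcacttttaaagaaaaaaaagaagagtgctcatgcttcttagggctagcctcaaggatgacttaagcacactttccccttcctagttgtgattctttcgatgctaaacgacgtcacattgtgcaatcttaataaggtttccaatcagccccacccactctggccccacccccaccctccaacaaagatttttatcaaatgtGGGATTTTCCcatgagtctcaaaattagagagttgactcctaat
Cxcl1: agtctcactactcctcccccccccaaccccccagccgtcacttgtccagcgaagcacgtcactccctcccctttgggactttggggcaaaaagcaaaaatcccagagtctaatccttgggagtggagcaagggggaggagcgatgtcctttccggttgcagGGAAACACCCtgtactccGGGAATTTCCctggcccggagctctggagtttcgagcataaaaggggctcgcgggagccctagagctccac
The matches begin 97 and 78 bases before the start in Cxcl2, 73 in Cxcl3, 44 in Il6, and 89 and 71 in Cxcl1, where the first is on the minus strand. These 250 bases were covered by peaks in full in all 4 PAM3-stimulated libraries for each of the 4 genes, so whatever separates the libraries in called length lies outside them.

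The motif stood in this window of 7 of the 24 cytokine and chemokine genes with a promoter entry (29.2%), beside 1.68% of 17492 genes with one. It stood in 5 of 77 genes that rose (6.49%: Cxcl2, Car10 and Tnn, and Rab15 and Slc6a12, named after their values were seen) and in 1 of 79 that fell (1.27%, Dop1b, likewise). Car10 and Tnn had 0 bp called within 1 kb of their starts in every PAM3-stimulated library, so their rises lie elsewhere in their windows. The AP-1 motif TGANTCA, searched on both strands, stood in 6 of the 24 cytokine and chemokine genes (25%), in 7.79% of the genes that rose and in 8.86% of those that fell, beside 7.19% of all. A match describes letters in a window and shows no binding.

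Inflammatory effectors and genes of NF-κB feedback had a median log2 change of 0.12. Of 42 tested, none rose or fell, and 16 were higher in both 25HC then PAM3 libraries while 4 were lower (21.3% and 17.4% of all tested genes). Sod2, the mitochondrial superoxide dismutase, had 5019 and 6204 bp in 25HC then PAM3, against 3374 and 4070 bp in PAM3 (log2 0.52, adjusted p = 0.0934). Nos2, the inducible nitric oxide synthase, changed by 0.63 (adjusted p = 0.536), Acod1, which makes itaconate, by 0.01, and Lcn2, an iron-sequestering protein, by 0.04. Of 30 immediate-early and AP-1 genes none passed (median log2 0.01).

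Among 36 interferon-stimulated genes, 1 rose and none fell, with a median of −0.01. That gene was Igtp (chromosome 11, 58199556 to 58207592), a GTPase that acts against intracellular parasites. It had 2774 and 2960 bp in 25HC then PAM3, against 1337 and 1756 bp in PAM3 and 1764 to 1953 bp in resting cells, so its high values were those of 25HC then PAM3. It rose by 0.72 ± 0.09 (log2, SE; adjusted p = 0.0368). With equal covered length its change was 1.84 (adjusted p = 0.451). Its window overlaps those of 2 neighbouring genes, which can share its peaks.

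The genes that 25HC is known to act on through SREBP and LXR gave no call. Of 32 genes of cholesterol synthesis none passed, with a median of −0.04. Insig1, which holds SREBP in the endoplasmic reticulum, had 1357 and 1309 bp in 25HC then PAM3, against 2072 and 2183 bp in PAM3 (log2 −0.53, adjusted p = 0.161). Of 25 LXR targets none passed either, again with a median of −0.04. Abca1, the cholesterol exporter, had 15164 and 16598 bp in 25HC then PAM3, against 12462 and 15353 bp in PAM3, and the groups overlapped (log2 0.18, adjusted p = 0.676). Apoe had 3693 and 2633 bp, against 5102 and 5366 bp in PAM3 (log2 −0.67, adjusted p = 0.182), and Cd5l, an LXR-driven survival factor of macrophages, had 2394 and 2776 bp, against 5194 and 4526 bp in PAM3 (log2 −0.81, adjusted p = 0.135). Both were lower in both 25HC then PAM3 libraries without passing.

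None of the stress and metabolic genes passed. Of 22 NRF2 and antioxidant genes 17 had a log2 change above 0, 11 were higher in both 25HC then PAM3 libraries and none was lower in both (median 0.19), where the shares over all tested genes were 50.9%, 21.3% and 17.4%. Gsr, glutathione reductase, had 10085 and 9389 bp in 25HC then PAM3, against 4626 and 6601 bp in PAM3 (log2 0.75, adjusted p = 0.236). Prdx1, a peroxidase, had 6109 and 4354 bp, against 2484 and 3651 bp in PAM3 (log2 0.68, adjusted p = 0.194). The 30 genes of the integrated stress response had a median of 0.10, with Phgdh, the first enzyme of serine synthesis, at 0.66 (adjusted p = 0.074) and the stress regulators Trib3 and Atf3 at −0.01 and 0.15. The 26 glycolysis genes had a median of 0.08.

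**Figure D3:**
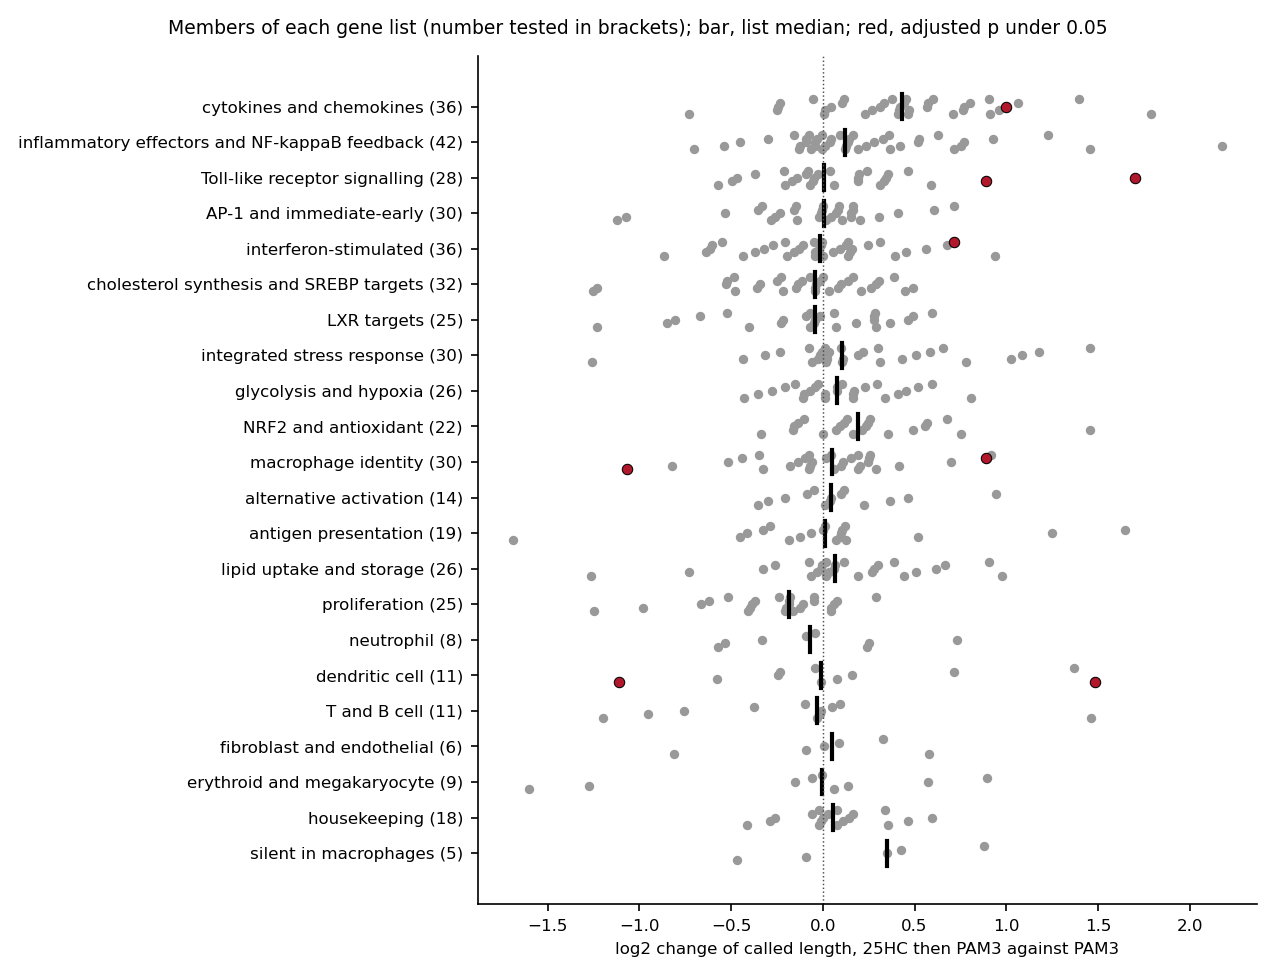
Log2 change of called length, 25HC then PAM3 against PAM3, for the tested members of each gene list (points; red marks adjusted p under 0.05 in limma, the bar the list's median). Most points of the cytokine list lie to the right of 0, with a median of 0.43, and the proliferation list sits to the left of 0, with a median of −0.19.

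Of 30 tested genes of macrophage identity, 1 rose (Cd14, given above) and 1 fell, with a median log2 change of 0.05. The fall was C1qa (chromosome 4, 136895916 to 136898844), a chain of the complement recognition molecule C1q that resting macrophages make. It had 1739 and 2546 bp in 25HC then PAM3, against 4736 and 5136 bp in PAM3 and 4278 to 4874 bp in resting cells. C1qa was low in the 2 libraries of 25HC then PAM3 alone and fell by 1.07 ± 0.14 (log2, SE; adjusted p = 0.0368). Its neighbour C1qc, whose window overlaps that of C1qa, had 2966 and 3927 bp, against 6251 and 6512 bp in PAM3 (log2 −0.82, adjusted p = 0.0669). Over the gene body alone the C1qa change was −0.32 and did not pass. Adgre1, the macrophage surface marker F4/80, had 13703 and 14755 bp in 25HC then PAM3, against 17121 and 21938 bp in PAM3 (log2 −0.44).

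On the dendritic cell list, 1 of 11 tested genes rose (Siglech) and 1 fell (Kmo). Siglech (chromosome 7, 55768154 to 55779448), a lectin best known from plasmacytoid dendritic cells, had 1854 and 1804 bp in 25HC then PAM3, against 325 and 329 bp in PAM3. Resting cells had far more, 3559 and 4120 bp with 25HC and 4180 and 5193 bp untreated. Siglech rose by 1.48 ± 0.15 (log2, SE; adjusted p = 0.0237), with a change of 0.01 over the gene body alone. No stimulated library had a peak over the gene itself. All 4 listed a peak beyond its right end, 2787 and 2750 bp long in 25HC then PAM3, against 2192 and 1692 bp in PAM3, and the edge of the window, 5 kb past the gene, cut the PAM3 peaks to 325 and 329 bp. The size of the rise is therefore set by where that peak begins relative to the edge. Kmo (chromosome 1, 175632193 to 175660853), which turns kynurenine into hydroxykynurenine, had 2273 and 2688 bp in 25HC then PAM3, against 5864 and 5893 bp in PAM3. Its resting values were 6634 and 8269 bp with 25HC and 10100 and 10968 bp untreated, so the groups did not overlap. Kmo fell by 1.11 ± 0.14 (log2, SE; adjusted p = 0.0341). When peaks under a −log10 q of 5 were left out, its change was 0.96 in the other direction. The 6 dendritic markers summed to 23.0 and 18.9 kb in 25HC then PAM3, against 18.0 and 22.1 kb in PAM3, with 4 of the 6 above 0 in all 8 libraries.

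None of the 25 proliferation genes passed, and 5 of them had a log2 change above 0 (median −0.19, resting median 0.03). Of the 25, 10 were lower in both 25HC then PAM3 libraries and none was higher in both, beside 17.4% and 21.3% of all tested genes. Ccnd1, the cyclin of the early cell cycle, had 1781 and 3300 bp in 25HC then PAM3, against 5299 and 5239 bp in PAM3 and 4024 to 5065 bp in resting cells (log2 −0.98, adjusted p = 0.131). Mcm5, a subunit of the replication helicase, changed by −1.25 (adjusted p = 0.164). Arg1, the arginase of alternatively activated macrophages, had 6082 and 6619 bp in 25HC then PAM3, against 3487 and 2645 bp in PAM3 and 3978 to 5115 bp in resting cells (log2 0.94, adjusted p = 0.0934), and it passed without PAM3 of mouse A (adjusted p = 0.0144). Ciita, the master regulator of MHC class II genes, had 5260 and 7053 bp, against 2433 and 2097 bp in PAM3 (log2 1.25, adjusted p = 0.108). No gene passed on the lists of alternative activation (14 tested), antigen presentation (19), lipid handling (26), neutrophils (8), T and B cells (11), fibroblasts (6), the erythroid line (9), housekeeping (18) or genes silent in macrophages (5 of 23 tested).

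The largest rises lay over genes with few or no peaks in PAM3. Htr2b (chromosome 1, 86097546 to 86116231), a serotonin receptor, had 5504 and 4427 bp in 25HC then PAM3, against 399 and 0 bp in PAM3 and 2175 to 3492 bp in resting cells. It rose by 3.01 ± 0.39 (log2, SE; adjusted p = 0.0368), in a window that overlaps the one of the proteasome gene Psmd1, another rise, named after its values were seen. Kcnn3, a calcium-activated potassium channel, had 3941 and 5819 bp, against 0 and 450 bp in PAM3, and rose by 2.93 (log2, adjusted p = 0.0338). Prrx1, a homeobox factor of mesenchyme, had 2834 and 3485 bp, against 0 and 241 bp in PAM3 and 994 to 1499 bp in resting cells, and rose by 2.57 (log2, adjusted p = 0.0208). Under −log10 q of at least 5 the change of Prrx1 was −0.30. Tnn, a tenascin of the extracellular matrix, had 1920 and 3150 bp, against 0 and 154 bp in PAM3 and 0 to 142 bp in resting cells, and rose by 2.37 (log2, adjusted p = 0.0413). In all 4 genes the pair of 25HC then PAM3 libraries stood above the other 6, and Htr2b, Kcnn3 (276 to 1126 bp) and Prrx1 had peaks in every resting library. With 2000 bp in place of 500 bp added before the logarithm, their changes were 1.66 (Htr2b), 1.62 (Kcnn3), 1.28 (Prrx1) and 1.11 (Tnn).

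The other large rises had both PAM3 libraries listed at 0, where the 500 bp added before the logarithm sets the log2 change and a pair of zeros shows no spread, so that the adjusted p can be too small. Drosha (chromosome 15, 12824804 to 12935291), the nuclease that starts microRNA processing, had 3072 and 1606 bp in 25HC then PAM3, against 0 and 0 bp in PAM3 (adjusted p = 0.0338). All 4 resting libraries had 4694 to 5560 bp over Drosha. The libraries of 25HC then PAM3 had no base of it called in common, since the peaks of mouse A lay from −737 to 14986 bp of its left end and those of mouse B from 32067 to 41300 bp, so its rise is not replicated at any position. It was the 1 of the 97 rises without a shared base, and over the 97 the median shared by both libraries of 25HC then PAM3 was 2976 bp. Cadps, a factor of vesicle release, had 2929 and 4706 bp in 25HC then PAM3, against 0 and 0 bp in PAM3 and 442 to 3048 bp in resting cells (adjusted p = 0.0265). Ltbp3, a binding protein of latent TGF-β, had 2879 and 2902 bp, against 0 and 0 bp in PAM3 and 1287 to 2810 bp in resting cells (adjusted p = 0.0273). Arhgap29, a GTPase-activating protein, had 2237 and 2112 bp, against 0 and 0 bp in PAM3 (adjusted p = 0.0361). These 4 genes had peaks in all libraries except those of PAM3. By contrast, Omd, a proteoglycan of bone (2453 and 3457 bp, against 0 and 0 bp in PAM3, adjusted p = 0.0338), and Serpinb9b, of the granzyme-inhibitor family (1941 and 2324 bp, against 0 and 0 bp, adjusted p = 0.0462), had no peak in any resting library. Afap1l2, an adaptor protein (2298 and 2590 bp, against 0 and 0 bp in PAM3, adjusted p = 0.0413), and Car10, a carbonic anhydrase relative (1785 and 1713 bp, against 0 and 0 bp, adjusted p = 0.045), had at most 356 bp there.

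The largest falls lay over genes with few or no peaks in 25HC then PAM3. Golph3 (chromosome 15, 12320488 to 12351601), a Golgi protein that binds phosphoinositides, had 0 and 0 bp in 25HC then PAM3, against 1850 and 3068 bp in PAM3 and 1840 to 3538 bp in resting cells (adjusted p = 0.022). Its promoter window of 250 bases was uncovered in both 25HC then PAM3 libraries and fully covered in the other 6. Yars2 (chromosome 16, 16302965 to 16309640), which charges tRNA in mitochondria, had 0 and 0 bp in 25HC then PAM3, against 1887 and 1947 bp in PAM3 and 1804 to 1947 bp in resting cells (adjusted p = 0.0155). Both genes thus lacked peaks in 25HC then PAM3 alone. The same held for Map3k7cl, with 0 and 0 bp, against 1552 and 2469 bp in PAM3 and 3355 to 4175 bp in resting cells (adjusted p = 0.0155). Ncam2, a neural adhesion molecule, had 0 and 0 bp, against 4062 and 1900 bp in PAM3 and 4635 to 7701 bp in resting cells (adjusted p = 0.0413). It held also for Atp6v1g3, a proton pump subunit, with 0 and 0 bp, against 2540 and 6020 bp in PAM3 (adjusted p = 0.0225). Lingo2 likewise had 0 and 0 bp, against 1888 and 2035 bp in PAM3 (adjusted p = 0.0264). When peaks under a −log10 q of 5 were left out, the changes of Yars2, Ncam2 and Atp6v1g3 were all −0.015 (log2). The authors' −log10 q of the PAM3 peaks over Atp6v1g3 was 0.897 to 2.22.

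Zhx1, a zinc finger and homeobox repressor, had 0 and 505 bp in 25HC then PAM3, against 4828 and 5325 bp in PAM3 and 2297 to 2833 bp in resting cells, and fell by 2.98 ± 0.29 (log2, SE; adjusted p = 0.0237). Cpa5, a carboxypeptidase, had 316 and 0 bp, against 2682 and 2676 bp in PAM3, and fell by 2.32 (log2, adjusted p = 0.0368). Cd55b, a relative of the complement regulator CD55, had 0 and 0 bp, against 2128 and 6720 bp in PAM3 and none in resting cells (adjusted p = 0.0467), so its peaks were listed in PAM3 alone. Pcdh19, a protocadherin on chromosome X, had 0 and 0 bp in 25HC then PAM3, against 3764 and 6709 bp in PAM3 (adjusted p = 0.022). Morc2a, a chromatin-silencing ATPase, had 0 and 0 bp, against 2834 and 5868 bp in PAM3 (adjusted p = 0.0324), and Lnx1, a ubiquitin ligase, had 0 and 0 bp, against 2049 and 2302 bp (adjusted p = 0.0225). Peaks over Morc2a and Lnx1 were also missing from both resting libraries given 25HC, and present in both untreated ones.

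Such empty windows were counted over all 21887 protein-coding genes, whether tested or not. A window at 0 in both libraries of 1 group and above 0 in the other 6 libraries occurred 63 times for 25HC then PAM3 and 44 times for PAM3, against 18 times each for 25HC and untreated cells. Of these, 22 of the 63 were among the 93 falls and 17 of the 44 among the 97 rises. Over all 14589 tested genes, 0.637% fell and 0.665% rose. The windows were picked by the values that the calls use, and a pair of zeros shows no spread. The pick thus favours a call, and these counts are a description. Windows at 0 in a single library and above 0 in the other 7 numbered 181 and 227 in 25HC then PAM3 and 124 and 256 in PAM3, against 70 and 115 in 25HC and 155 and 90 in untreated cells. A peak that just misses the authors' threshold and a mark that is gone look the same in such lists.

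The resting libraries ask whether 25HC had these effects without PAM3. In 25HC against untreated cells, 1 gene rose and 4 fell (5 of 14589, 0.0343%), none of them among the 190. The median resting change was 0.01 over the 97 rises and −0.06 over the 93 falls, and it had the opposite sign for 43 and 35 of them. For 46 of the 97 rises and 36 of the 93 falls, the mean of the resting libraries was nearer to 25HC then PAM3 than to PAM3. The test of the difference itself, the effect of 25HC with PAM3 minus that without, called 0 genes in limma (0% of 14589), with 1438 at an unadjusted p under 0.05. The smallest adjusted p of the difference was 0.0734. Several genes shared it, among them Tlr4, Yars2, Map3k7cl and Prrx1 of the genes named here. A dependence on PAM3 was therefore not shown for any single gene.

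**Figure D4:**
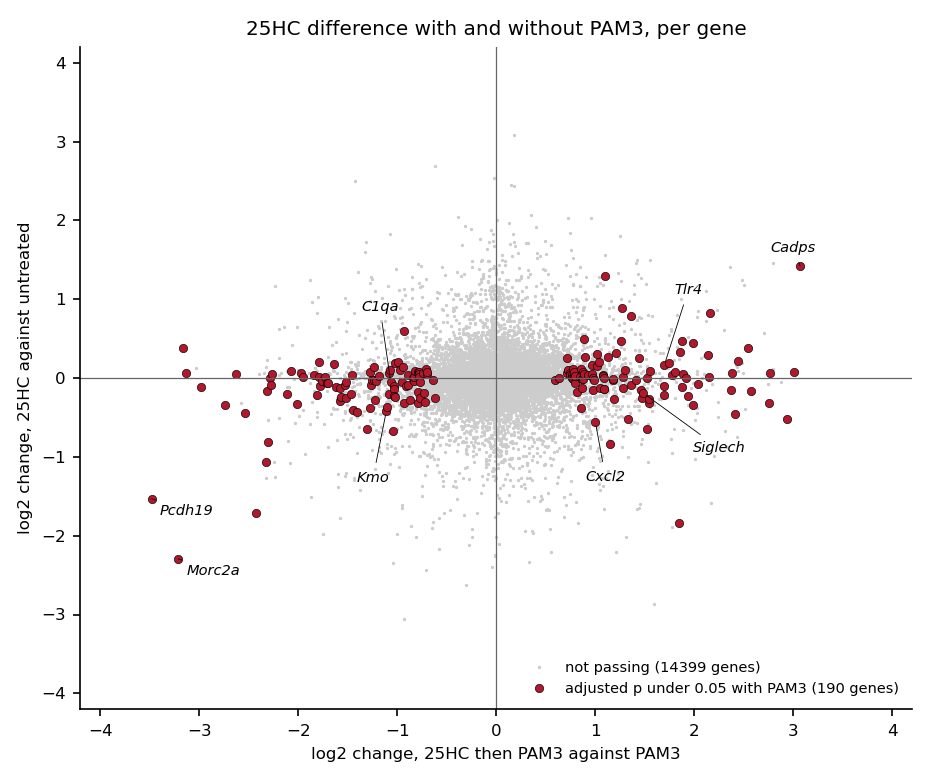
Log2 change of called length for 25HC then PAM3 against PAM3 (horizontal axis) and for 25HC against untreated (vertical axis), 1 point per tested gene. Red marks the 190 genes under an adjusted p of 0.05 with PAM3. The red points lie away from 0 on the horizontal axis and spread on both sides of 0 on the vertical one, where the called genes range from −2.29 to 1.42.

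Positions were also compared without genes, in 1 kb bins of chromosomes 1 to 19. A bin counted as gained where at least 500 bp were covered in both 25HC then PAM3 libraries and in neither PAM3 library, and as lost in the reverse case. Of 94606 bins called in at least 1 of the 4 libraries, 6167 were gained (6.52%) and 4443 lost (4.7%). This has no test. With a library left out, 1 library stands for its pair, so the rule is easier to meet and both counts were higher. Without 25HC then PAM3 of mouse A there were 14362 gained and 7163 lost, and without that of mouse B 11318 and 8189. Without PAM3 of mouse B there were 12962 gained and 8128 lost. Without PAM3 of mouse A, which leaves the most covered library alone in its group, the balance turned to 8473 gained and 15309 lost. Gained bins were fewer near gene ends (10.5% within 1 kb of an end, 48.5% inside genes, 41.0% outside) than all called bins (21.5%, 48.2% and 30.3%), and lost bins lay at 11.2%, 56.1% and 32.7%.

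Most gained bins were silent in resting cells: 57.6% were called in none of the 4 resting libraries and 11.5% in all 4. Of the lost bins, 31.9% were called in none and 31.5% in all 4, beside 32.1% and 39.6% of all called bins. Windows of cytokine and chemokine genes held 24 gained and 3 lost of 185 called bins (13.0% and 1.62%), where windows of all tested genes held 5.63% and 4.57%. NRF2 and antioxidant genes held 14 gained and 5 lost of 117, and proliferation genes 1 gained and 10 lost of 137 (7.30% lost). Genes of the integrated stress response held 14 gained and 4 lost of 138. The highest share lost was that of antigen presentation genes, with 7 gained and 10 lost of 115 (8.70% lost).

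**Figure D5:**
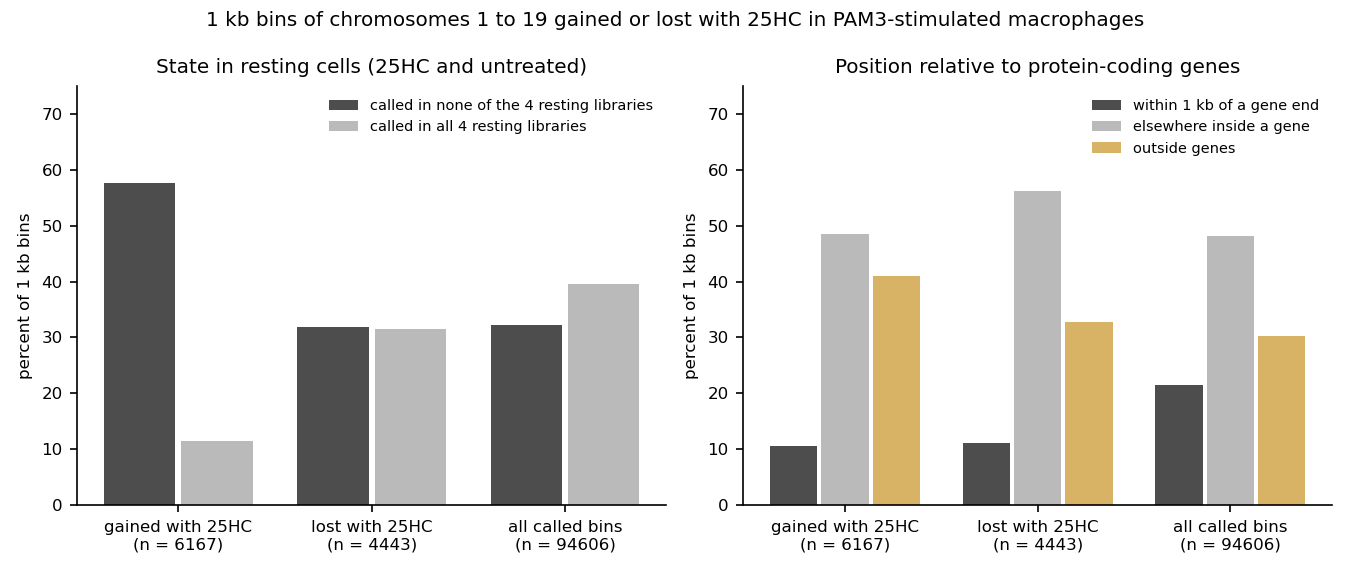
Percent of the 6167 gained, 4443 lost and 94606 called 1 kb bins that were called in none or all of the 4 resting libraries (left) and that lay near a gene end, inside a gene or outside genes (right). Gained bins were called in no resting library in 57.6% of cases, against 31.9% of lost and 32.1% of all bins.

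Gained and lost bins were mostly scattered: the 6167 gained bins formed 5339 runs, 78 of them 3 bins or longer, and the 4443 lost bins formed 3989, with 37 of that length. The longest gained runs were 4 kb. Runs of equal length, gained or lost, were ranked by the difference in covered bp between the groups. The contrast at the runs named here is thus part of how they were picked. One lay in Clec1a, a lectin receptor gene, at chr6:129433001-129437000, with 3971 and 4000 bp covered in 25HC then PAM3, against 0 and 0 bp in PAM3 and 3023 to 3991 bp in resting cells. The run in Tlr4 showed the same absence in PAM3 alone. Another lay in Ly75, the endocytic receptor DEC-205, at chr2:60367001-60371000, with 4000 and 3835 bp in 25HC then PAM3, against 0 and 0 bp in PAM3 and none in resting cells. The run at chr5:90716001-90720000, 39298 bp from the neutrophil attractant Cxcl5 and in the same chromosome region as Cxcl1 to Cxcl3, had 3273 and 3338 bp, against 0 and 0 bp in PAM3. Resting cells had 1906 and 1366 bp there with 25HC and 1945 and 0 bp untreated. Runs whose nearest genes were Gli3 (chr13:15851001-15855000, 120975 bp away) and Tes (chr6:17141001-17145000, 35176 bp away) had at most 253 bp in either PAM3 library and at most 538 bp in resting ones.

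The lost runs below were likewise picked by length and then by contrast, out of 37 that were 3 bins or longer. Of these picked runs, 1 lay in Cblb, a ubiquitin ligase that restrains immune receptors, at chr16:52143001-52146000. It had 0 and 0 bp in 25HC then PAM3, against 2960 and 3000 bp in PAM3 and 923 to 1839 bp in resting cells. The run 811 bp from Tmem176b, a membrane protein gene of myeloid cells, at chr6:48830001-48833000 was fully covered, at 3000 bp, in all 4 resting libraries. The run in Ccdc47, at chr11:106200001-106203000, had 0 and 0 bp in 25HC then PAM3, against 2937 and 3000 bp in PAM3 and 1998 to 2945 bp in resting cells. The run 1485 bp from Dad1, at chr14:54231001-54234000, had 0 and 0 bp, against 3000 and 3000 bp in PAM3. The runs at chr19:38360001-38364000 and at chr15:62970001-62973000 were covered in no resting library.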

How the data were processed

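The submitters' processing notes name GSNAP as aligner, GRCm38 (mm10) as build and MACS2 2.1.0 as peak caller. Controls, filters on reads and the caller's cut-offs were not given in the sources used here. Each deposited file is a broadPeak list of 1 library with the authors' score, fold ratio over background, −log10 p and −log10 q, each a mean over the peak; they were used as deposited, to rank or filter peaks only. Lists hold no reads, so no counting interval was computed.

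Called length, from peak starts and ends, was summed over each protein-coding gene of a RefSeq table on GRCm38.p6 with 5000 bp on either side (21887 genes). A gene needed a mean of 500 bp or more over all libraries, which 14589 had. Values were log2 of bp plus 500, with each library's median subtracted; without that subtraction the median change was 0.01. limma 3.58.1 (R 4.3.3, trend and robust) fitted the 4 groups with 4 residual degrees of freedom (median prior 1.77). On simulated data with normal noise, the fit was checked for the direction and median size of added changes. No limit was set there on false calls, so that check does not vouch for the calls above. Bins, motifs and figures used Python 3.11.15, scipy 1.17.1 and matplotlib 3.10.9. Nothing says that the libraries of a mouse came from separate cultures, so p-values measure the spread between these libraries.

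Per the labels a letter names 1 mouse, so libraries pair by letter. After the group means were removed, same-letter libraries correlated with r between −0.0170 and 0.0304 over genes. The main fit has no mouse block, and the fit with it is given beside the calls it ends.

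The members and gene lists were chosen with earlier results of these data known. The text names the 12 largest rises and 12 largest falls, up to 3 members per list with the smallest unadjusted p under 0.05, a fixed set of inflammatory and sterol genes, and the 6 longest stretches gained and 6 lost. Among stretches of equal length, those with the largest difference in covered bp between the groups were taken. Gene models without a proper name and receptors of smell and pheromones were passed over. Tlr1, Tlr2, Tlr6, Myd88, Ly96, Adgre1 and Cxcl3 fall outside this rule and were chosen after their values were seen. Some genes this rule takes in are not reported here or counted below. Alternatives changed the pseudocount, filter, centring, peaks used, window, libraries and block.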

Additional observations from a re-analysis of the deposited data

How the results depend on the processing

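The 190 calls became 0 with the mouse as a replicate block, 0 with the 4 PAM3-stimulated libraries alone, 0 with peaks of −log10 q of at least 5 and 0 with covered length made equal. They became 59 with the same number of peaks, 90 with a filter of 2000 bp and 91 without median subtraction. With 1 library left out the count ranged from 0 to 434: 316 (53 rising) and 121 (22 rising) without 25HC then PAM3 of mouse A or B, 434 (333 rising) and 134 (106 rising) without PAM3 of mouse A or B, and 0 without any resting library. The difference between 25HC effects, called for 0 genes, was called for 3 with a pseudocount of 100 bp, 9 over the gene body alone and 0 to 192 with 1 library left out.

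Gained bins were 3722 at 900 bp of a bin and 8473 to 14362 with 1 library left out. Lost bins were 2372 at 900 bp and 7163 to 15309 with 1 library left out. The rule for a bin is easier to meet when a group has 1 library. The difference in covered length, 2.09 Mb, was −5.80 to 9.97 Mb with 1 library left out, with −0.957 without 25HC then PAM3 of mouse B.

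Of 1618 values of 88 named genes, 1202 kept direction and side of the threshold, 362 kept direction only, 6 newly passed and 48 turned; the cause was not tested. With −log10 q of at least 5, log2 changes turned to −0.30 (Prrx1), −1.14 (Sod2), −0.61 (Slc7a2), 1.74 (Traf6), −0.67 (Egr2), −1.18 (Herc6), −2.53 (Oas3), 1.16 (Cd5l), 0.12 (Apoc1), −1.02 (Gpt2), −1.60 (Hk1), −1.01 (Prdx1), 0.051 (H2-DMa), −1.29 (Hilpda), 0.96 (Kmo), 0.47 (Lck), −1.23 (Gusb), 1.12 (B2m), −2.43 (Tnf), −0.51 (Il1b), −0.87 (Il12a), −1.58 (Il12b), −0.12 (Acod1), −0.19 (Abca1), 0.61 (Ch25h) and −1.59 (Atf3). With the same number of peaks they turned to −0.87 (Slc7a2), −0.40 (Cth) and −0.89 (Il12b). With the same covered length they turned to −0.82 (Slc7a2), 0.66 (Cd5l), 0.31 (Apoc1), −0.13 (Gpt2), −0.35 (Cth) and −1.53 (Il12b). Over the gene body alone they turned to 0.016 (Insig1), 0.028 (Sc5d), 0.080 (Lck), 0.048 (B2m), −0.27 (Acod1) and 0.030 (Trib3). With 1 library left out, Tnf lay at −0.035 to 0.060, Il12b at −0.27 to 0.36, Acod1 at −0.067 to 0.087, Lcn2 at −0.0073 to 0.086 and Trib3 at −0.059 to 0.029. Read depth is unknown, so a peak just under the authors' threshold cannot be told apart from an absent mark.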

Other observations

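Several genes of the fixed set showed large values that differed between the mice. Ch25h, the enzyme that makes 25HC, had 1881 and 0 bp in 25HC then PAM3 (mouse A, mouse B), against 1960 and 2266 bp in PAM3, 2271 and 1826 bp in 25HC and 0 and 1861 bp in untreated cells, so its peak was missing from 1 library each of 25HC then PAM3 and of untreated cells. Ptgs2, the inducible prostaglandin synthase, had 2576 and 3689 bp in 25HC then PAM3, against 1044 and 2392 bp in PAM3 (log2 0.76, limma with Benjamini-Hochberg adjustment, adjusted p = 0.601). Il12a had 3129 and 3184 bp in 25HC then PAM3, against 1156 and 3138 bp in PAM3 (log2 0.57, adjusted p = 0.473). Both had far less in resting cells, at most 1016 bp for Ptgs2 and 380 bp for Il12a.

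Egr2, an early growth response factor, had 3321 and 2874 bp in 25HC then PAM3, against 1709 and 1645 bp in PAM3 and 1669 to 2175 bp in resting cells (log2 0.71, limma adjusted p = 0.12). Cd40, the co-stimulatory receptor, had 3356 and 3683 bp, against 4659 and 5274 bp in PAM3 and 4748 to 5438 bp in resting cells (log2 −0.45, adjusted p = 0.134). Neither passed, and in both the libraries of 25HC then PAM3 stood apart from the other 6.

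Peaks in gained bins were shorter than peaks in bins called in all 4 stimulated libraries. Their median length was 1240 and 1307 bp in 25HC then PAM3, beside 1536 and 1618 bp for the shared bins, and the authors' median −log10 q was 4.86 and 6.09, beside 5.87 and 6.32. In PAM3, peaks of lost bins had medians of 1045 and 1239.5 bp, beside 1419 and 1667 bp. By chromosome, gained bins made up 5.18% (chromosome 17) to 8.19% (chromosome 13) of called bins, and lost bins 3.77% (chromosome 10) to 5.59% (chromosome 14).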
